A study of Bos taurus with 18 samples.

Results

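The genes described here are the solute carriers that reached a set level in bovine oocytes or embryos. They are the row names of the deposited expression table that follow the SLC naming pattern, without the mitochondrial SLC25A family and without the glucose carriers SLC2A1 and SLC2A3, and with a mean value of 8 or more in at least 1 of 6 stages. Of 21668 genes in the table, 321 had an SLC name of this pattern, 281 were left after the exclusions and 93 met the level. The other 188 stayed below it, and 13 of these had no read in any library. The value of 8 equals 251.7 scaled counts, the unit of level used below, which is reads corrected for the depth of the library. The stage means chose the members, so levels and stages of highest mean are descriptions.

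The study sequenced RNA of bovine oocytes and embryos to place genome activation in time, as its title says. Each stage has 3 libraries, and each library holds 10 pooled oocytes or embryos. The oocytes, of German Simmental cows, were taken at the germinal vesicle (GV) stage before maturation in culture and at metaphase II (MII) after it. The embryos, labelled German Simmental x Brahman, came from fertilisation in vitro with 1 Zebu bull and culture at 5% oxygen, and were taken with 4, 8 and 16 cells and as blastocysts. Breed and stage therefore change together between MII oocytes and 4-cell embryos and cannot be told apart there or between GV oocytes and blastocysts. All oocytes came from abattoir ovaries, all stages after GV passed through culture in media with serum, and no group from the reproductive tract was analysed here. Fewer cells of a type and less RNA per cell cannot be told apart in such pools.

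Solute carriers are membrane proteins that move amino acids, sugars, vitamins, ions and metals by facilitated diffusion, exchange, or cotransport with sodium, protons or other ions. Early cleavage embryos live on pyruvate, lactate and amino acids and use little glucose, while the blastocyst takes up more glucose and moves sodium and water across its outer epithelium, the trophectoderm, to fill its cavity. Several carriers work only with a partner: the light chains SLC7A5, SLC7A6, SLC7A7 and SLC7A8 need the heavy chain SLC3A2 to reach the plasma membrane. The label of the set as plasma membrane carriers holds for part of it. By general knowledge of the proteins, 56 members act at the plasma membrane, 21 in inner membranes, 3 in both, and the place of 10 is unsure. A further 3 carry an SLC name without being carriers, namely the scaffold SLC9A3R1 (now NHERF1), SLC4A1AP and SLC7A6OS.

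Libraries held 2438473 (16-cell replicate 2) to 11971840 reads on genes, and 1 read was worth 0.562 to 2.82 scaled counts. Of the 8-cell libraries, replicate 2 had the fewest genes with reads, 12393, and was close to 0 for several members that the other 2 libraries of that stage showed. The fewest genes of all libraries, 11970, were found in 16-cell replicate 1, with 7456788 reads. It was the lowest of its stage for SLC7A7, SLC38A2, SLC1A1 and SLC30A9 and the highest for others, such as SLC2A5. Rank correlations over the members between replicates were lowest for 8-cell replicates 2 and 3, at 0.785, and 0.895 to 0.964 within the oocyte stages. Summed over 12 oocyte markers such as GDF9 and ZP3, the level went from between 97059 and 127480 scaled counts in GV libraries to between 108.4 and 327.5 in blastocysts. Trophectoderm markers such as CDX2 and KRT8, 11 in all, summed to 861.2 to 1643 in 16-cell libraries and 34012 to 68795 in blastocysts. Of 22 markers of cumulus and granulosa cells, 19 had reads in GV libraries (LHCGR, TNFAIP6 and FOXL2 had none). The 22 summed to 3816 to 5246 there, 949.4 to 2199 in 16-cell embryos and 7002 to 17658 in blastocysts. PTGS2, which also counts among the trophectoderm markers, alone had 10672 ± 5060 (mean ± SD) in blastocysts. It had 680 ± 133 in GV oocytes and 12.2 ± 7.13 at the 16-cell stage. INHA, INHBB, GREM1, FST and CD44 had no reads in blastocysts. Of the 20 cumulus and granulosa markers tested, 5 were higher and 8 lower in blastocysts than in GV oocytes. The blastocyst sum is therefore no measure of cumulus cell RNA. The part of cumulus and granulosa cells in the results was not tested.

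The members' share of the library, with the 3 non-carriers, was larger from the 16-cell stage on. The 93 members took 0.471% to 0.618% of the reads in the 12 libraries up to the 8-cell stage, 0.793% to 0.849% at the 16-cell stage and 0.81% to 1.03% in blastocysts. Every 16-cell and blastocyst library lay above every earlier one, a description of members that were chosen by level. Most members had their highest mean in these stages, so the choice of members by itself favours such a difference. The same share was not computed for the other genes that met the level. SLC1A5 alone had 12467 ± 2484 scaled counts (mean ± SD) at the 16-cell stage, and the non-carrier SLC9A3R1 4996 ± 1300 in blastocysts. The stage of highest mean was the blastocyst for 35 members, the 16-cell stage for 22, MII for 15, the 4-cell stage for 10, GV for 6 and the 8-cell stage for 5. Of the 7462 genes of the table that met the same level, 26.9% were highest in the blastocyst, against 37.6% of the carriers, and 13.2% at the 8-cell stage, against 5.38% of the carriers. Of the carriers 12.9% had a mean of 8 or more in all 6 stages, against 29.1% of all genes at that level, and 35.5% in a single stage, against 20.2%.

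**Figure D1:**
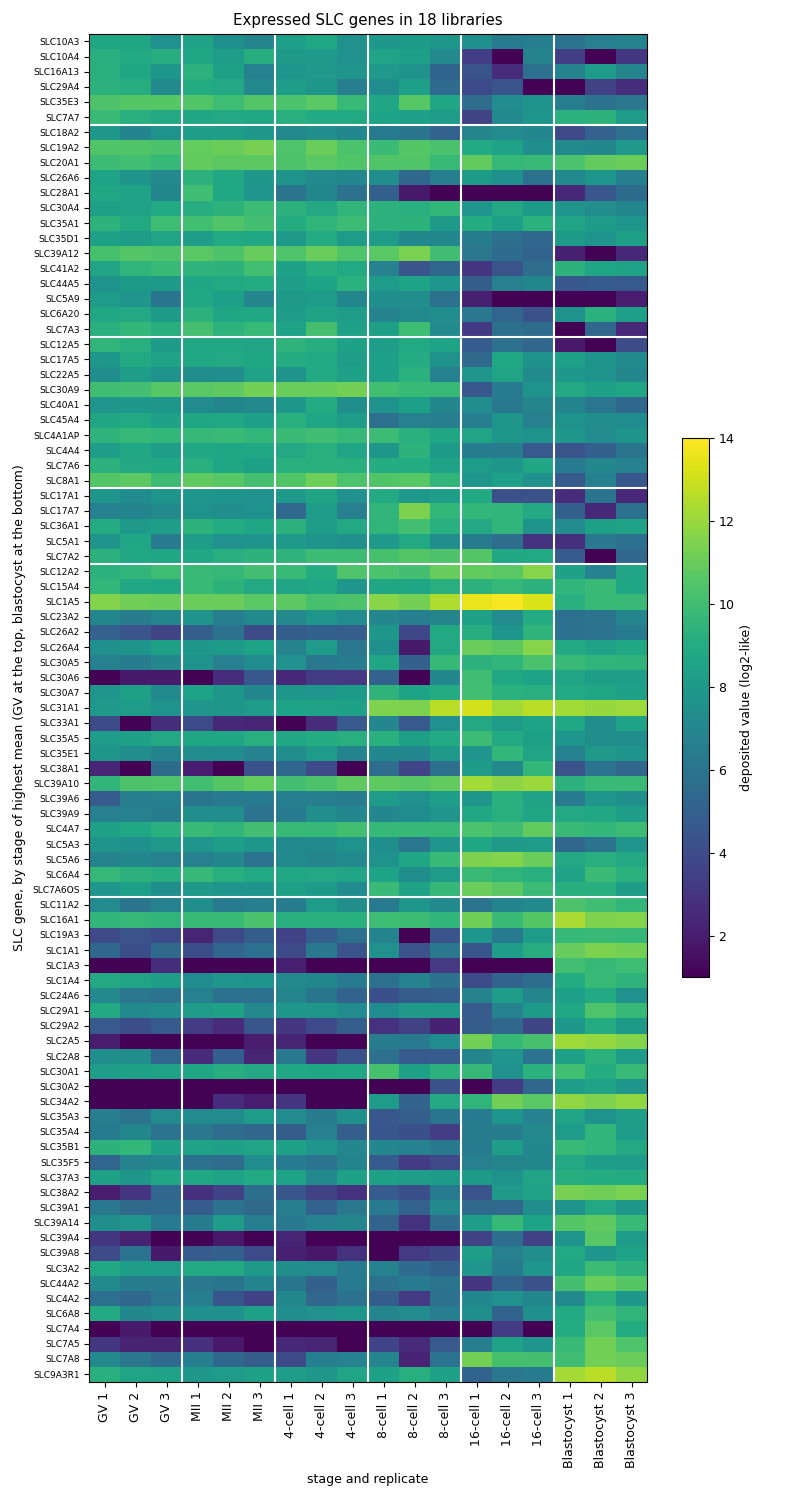
Deposited log2-like value (colour, no unit) of 89 of the 93 members (rows, grouped by the stage of highest mean) in the 18 libraries (columns, 3 per stage). Of the 30 rows at the top, highest in GV, MII or 4-cell libraries, 23 have a blastocyst mean under 8, and of the 32 rows at the bottom, 21 have a mean of 8 or more in the blastocyst columns alone.

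**Figure D2:**
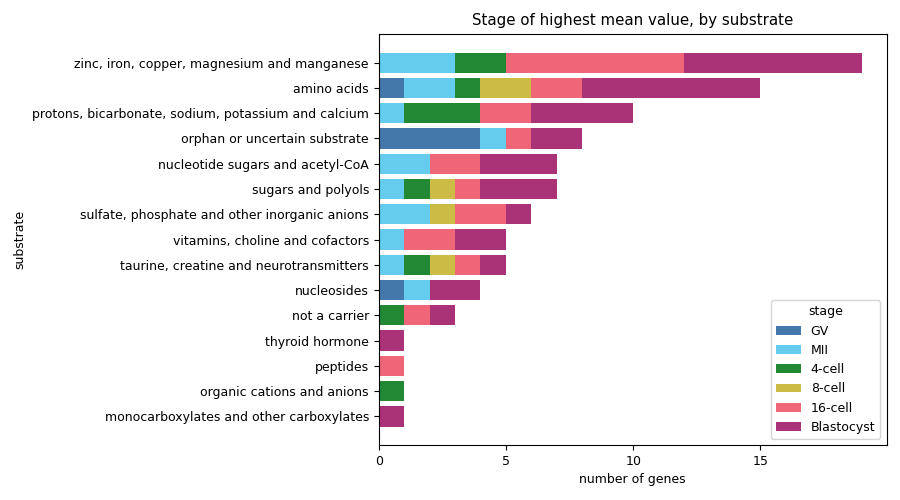
Number of members (x axis) in each substrate group (y axis), coloured by the stage of highest mean. The 19 metal carriers and 15 amino acid carriers are the largest groups, and 7 members of each are highest in the blastocyst.

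Changes between stages were tested for every gene of the table with limma, in a single model of the 18 libraries. A member is said to rise or fall where its adjusted p (Benjamini-Hochberg, across 17138 tested genes) was under 0.05. Differences are between stage means of the log2-like deposited values, later stage minus earlier, ± SE. For genes with few reads they are smaller than the log2 fold, and against a stage with almost no reads they depend on the floor of the scale. All 93 members could be tested. Since a member needed a high mean somewhere, a gene high in 1 stage only had to differ from other stages, and counts of members are set beside the share called among all genes tested or among the 7462 genes of like level.

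No carrier passed the test during maturation or in the first cleavages. Between GV and MII oocytes, 0 members rose and 0 fell, where 0.0992% of all genes tested rose and 0.613% fell (0.161% and 1.15% of genes of like level). An unadjusted p under 0.05 was found for 4 members. The voom test on the reads called 0, and a fit with array weights (libraries weighted by how well they follow the model) called 2 rises and 1 fall. Between MII oocytes and 4-cell embryos, 0 rose and 0 fell, against 0.0642% and 0.729% of all genes tested (0.121% and 1.59% at like level), with 6 at an unadjusted p under 0.05, 0 by voom and 4 falls with array weights. The nearest to a call was SLC2A8, a glucose carrier of inner membranes, with 172, 160.4 and 33.7 scaled counts in GV and 2.56, 25.0 and 1.72 in MII oocytes (difference -3.42 ± 0.87, adjusted p = 0.079). Its groups did not overlap. It passed with a replicate block (adjusted p = 0.047) and among genes of mean value 5 or more (0.045).

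At the 8-cell stage the first carriers moved. Copper importer SLC31A1, fructose carrier SLC2A5, phosphate carrier SLC34A2, glutamine carrier SLC1A5, vitamin carrier SLC5A6, vesicular glutamate carrier SLC17A7, acetyl-CoA carrier SLC33A1 and the non-carrier SLC7A6OS rose. Magnesium carrier SLC41A2, nucleoside carrier SLC28A1, SLC45A4, SLC35A3, SLC35F5 and zinc carrier SLC39A14 fell. The 8 rises and 6 falls compare with 8.64% and 4.13% of all genes tested and with 13.9% and 6.81% at like level, or 8.6% and 6.45% of the members. With the medians of the libraries set equal there were 6 rises and 7 falls, so the share of calls that were rises went from 57.1% to 46.2%. Without 8-cell replicate 3 the rises numbered 5, and without 4-cell replicate 3 the falls numbered 3.

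At the 16-cell stage 26 members rose (28.0%) and 23 fell (24.7%), where 14.8% of all genes tested rose and 16.3% fell, and 23.2% and 25.4% did so at like level. The largest rises were those of SLC7A8, SLC26A4, SLC39A8, SLC30A6, SLC39A14 and SLC7A5, and the largest falls those of SLC5A9, SLC39A12, SLC10A4 and SLC29A4. Both directions were thus close to the shares of genes of like level. Without 8-cell replicate 2, the library near 0 for several of these genes, 16 members rose.

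From the 16-cell stage to the blastocyst, 27 members rose (29.0%) and 18 fell (19.4%). Of all genes tested 18.2% rose and 13.1% fell, and of genes of like level 19.6% rose and 24.3% fell. SLC1A3, SLC7A4, SLC44A2, SLC30A2, SLC39A4, SLC41A2 and SLC1A4 rose most, next to the scaffold SLC9A3R1, and SLC7A2, SLC17A7, SLC1A5, SLC39A12 and SLC12A2 fell most. With library medians set equal, 24 rose and 27 fell, and the share of rises among the calls went from 60.0% to 47.1%. The direction with more calls thus turned with the scaling, while the members named just above kept their calls. SLC16A1, SLC35A4 and SLC39A1, described below, lost their rises at this step with medians set equal (adjusted p 0.053 to 0.1). Setting the medians equal moved the median of all genes tested by -0.36 here, by -0.28 between GV oocytes and blastocysts and by -0.24 at the 8-cell stage.

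Set against each other, the ends of the series differed for most carriers: 37 members were higher in blastocysts than in GV oocytes (39.8%) and 29 lower (31.2%). All genes tested gave 25.6% and 20.4%, and genes of like level 30.6% and 30.3%. Over all 6 comparisons, 10 members had no call, namely SLC15A4, SLC17A5, SLC22A5, SLC26A6, SLC2A8, SLC30A7, SLC35E1, SLC36A1, SLC37A3 and SLC39A6. A fit limited to the 6 libraries of a comparison, in place of all 18, lost 79 of the 174 calls of members, and no call turned its direction in any fit. Of the 174 calls, 125 held in every fit that left out 1 library. Where a gene named below lost a call in such a fit, or with array weights, voom, medians set equal, quantile normalization or no filter on low values, this is said. It stands in the gene's own paragraph or in a later paragraph on the same substrate group. Losses in the fit limited to 6 libraries are given below only for SLC7A8 and SLC26A4. Among others, that fit also lost SLC1A5 at the 8-cell and 16-cell stages (adjusted p 0.091 and 0.063). It lost SLC7A5 and SLC7A3 at the 16-cell stage (0.064 and 0.1) and SLC1A1 and SLC38A2 into the blastocyst (0.091 and 0.059).

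**Figure D3:**
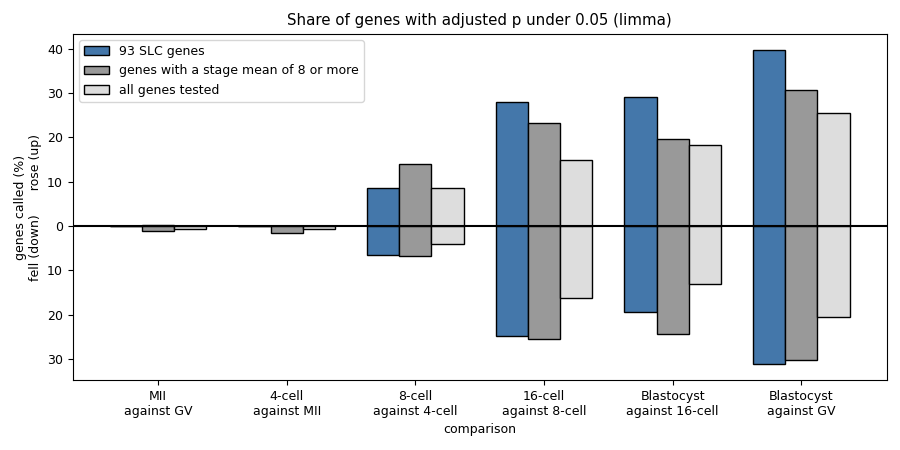
Percent of genes that rose (bars upward) or fell (bars downward) at a limma adjusted p under 0.05 in the 6 comparisons, for the 93 members (blue), the 7462 genes with a stage mean of 8 or more (dark grey) and the 17138 genes tested (light grey). Members show no bar up to the 4-cell stage and their longest bars, 39.8% up and 31.2% down, between GV oocytes and blastocysts.

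Among the 15 amino acid carriers, 5 rose and 3 fell at the 16-cell stage and 8 rose and 3 fell into the blastocyst, and between the ends 5 were higher and 4 lower. Of genes of like level, 23.2% rose and 25.4% fell at the 16-cell stage, 19.6% and 24.3% did so into the blastocyst, and 30.6% were higher and 30.3% lower between the ends. SLC7A3 and SLC7A2 carry lysine and arginine across the plasma membrane. The scaled counts of SLC7A3 were 595, 764 and 587 in GV, 1157, 662 and 844 in MII, 373, 1165 and 339.5 in 4-cell, 334, 1003 and 152 in 8-cell, 5.62, 50.8 and 44.5 in 16-cell and 0, 35.1 and 1.94 in blastocyst libraries. It was high up to the 8-cell stage and fell at the 16-cell stage (difference -3.68 ± 0.86, adjusted p = 0.0029), with no overlap between any earlier library and the last 6. SLC7A2 measured 658, 437 and 392 (GV), 432, 578 and 679.8 (MII), 703, 944 and 951 (4-cell), 1201, 1442 and 1337 (8-cell), 1469, 438 and 466 (16-cell) and 22.0, 0 and 37.8 (blastocyst). Its mean was highest at the 8-cell stage, still 791 ± 587 at the 16-cell stage, and it fell only in blastocysts (difference -5.67 ± 0.71, adjusted p = 4.2e-06). Their relative SLC7A1 did not reach the level, with at most 140.8 ± 82.8 scaled counts, in blastocysts. SLC7A4, a relative with no settled substrate, had 0 reads in 13 of 15 libraries before the blastocyst and 505, 1630.0 and 513 in blastocysts (difference 7.75 ± 0.68, adjusted p = 3.8e-08).

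Light chains that pair with SLC3A2 moved in opposite directions. SLC7A5, which exchanges leucine and other large neutral amino acids for glutamine, measured 4.74, 1.41 and 1.47 in GV, 3.42, 0.659 and 0 in MII, 2.25, 1.69 and 0 in 4-cell, 8.55, 2.29 and 21.0 in 8-cell, 91.0, 356 and 217 in 16-cell and 908, 2393 and 1380.4 in blastocyst libraries. The 16-cell libraries lay above all earlier ones and the blastocyst libraries above those, and it rose at the 16-cell stage (difference 4.01 ± 0.81, adjusted p = 0.00085) and again in blastocysts (difference 2.88 ± 0.81, adjusted p = 0.0091). SLC7A8, of like substrates, measured 115, 1.53 and 57.7 in 8-cell, 2511, 1192 and 1127 in 16-cell and 1036, 2378 and 2073 in blastocyst libraries, after 11.8 to 137 in the 9 earlier ones. It rose at the 16-cell stage (difference 5.51 ± 0.91, adjusted p = 0.00014), also without the low 8-cell replicate 2. The limma fit to the 8-cell and 16-cell libraries alone lost this call of SLC7A8 (adjusted p = 0.074). SLC7A6, which takes up neutral amino acids in exchange for cationic ones, went the other way, from 331 to 645 in the first 12 libraries over 283, 232 and 389.8 at the 16-cell stage to 74.0, 124 and 99.7 in blastocysts (difference -1.56 ± 0.35, adjusted p = 0.0019). It overlaps SLC7A6OS in the gene table, and the library kit does not mark strand, so reads of the 2 genes may be mixed. SLC7A7, of the same exchange, measured 373, 319 and 286 in 8-cell, 8.99, 147 and 221 in 16-cell and 622, 664 and 273 in blastocyst libraries, a fall (difference -2.11 ± 0.68, adjusted p = 0.022) and a rise (difference 2.68 ± 0.68, adjusted p = 0.0043). The heavy chain SLC3A2 had its low point at the 8-cell stage: it measured 446, 299.6 and 282 (GV), 474, 479 and 248 (MII), 169, 152 and 81.0 (4-cell), 103, 42.8 and 28.9 (8-cell), 219, 79.1 and 226 (16-cell) and 409.9, 959.6 and 649.5 (blastocyst). It rose into the blastocyst (difference 1.98 ± 0.53, adjusted p = 0.0063) and, with a larger adjusted p, at the 16-cell stage (difference 1.56 ± 0.53, adjusted p = 0.028). SLC7A7 at the 16-cell stage lost its call without 8-cell replicates 1 and 2 or 16-cell replicate 1 and with array weights (adjusted p 0.051 to 0.13). SLC3A2 at the 16-cell stage lost its call without 8-cell replicates 2 and 3 or 16-cell replicates 1 and 3 and with array weights, quantile normalization or voom (adjusted p 0.051 to 0.26).

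The SLC1 family takes up acidic and neutral amino acids. SLC1A1, which takes up glutamate, aspartate and cysteine, measured 18.0, 294 and 549 at the 16-cell stage and 2034, 2728 and 2527 in blastocysts (difference 3.97 ± 0.96, adjusted p = 0.0032), after 11.3 to 189 before. SLC1A3, a glutamate and aspartate carrier best known from glia, had reads in 3 of the 15 earlier libraries, at most 5.25 scaled counts, and measured 1078, 842 and 992 in blastocysts (difference 8.82 ± 0.7, adjusted p = 8.8e-09). SLC1A4, which exchanges alanine, serine and cysteine, measured 461, 382 and 293 in GV, 12.4, 31.1 and 48.3 in 16-cell and 507, 891 and 698 in blastocyst libraries, a rise from the 16-cell stage (difference 4.46 ± 0.49, adjusted p = 7.1e-07) that brought it no call against GV oocytes (difference 0.86 ± 0.49, adjusted p = 0.16). Its sister SLC1A5, which exchanges glutamine and other neutral amino acids, measured 3128, 2338 and 2127 in GV, 2051, 2067 and 1651 in MII, 1671, 1203 and 1301 in 4-cell, 3340.0, 2484 and 5565 in 8-cell, 12710.0, 14820.0 and 9870.2 in 16-cell and 593, 902 and 870.2 in blastocyst libraries. Its 16-cell libraries stood above all others and its blastocyst libraries below all others, with a rise at the 8-cell stage (difference 1.38 ± 0.29, adjusted p = 0.0027), another at the 16-cell stage (difference 1.78 ± 0.29, adjusted p = 0.00016) and a fall in blastocysts (difference -3.98 ± 0.29, adjusted p = 4.1e-09).

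System A carriers, which bring in alanine and glutamine with sodium, were highest late. SLC38A2 measured 0.948 to 81.4 in the first 12 libraries, 16.9, 254 and 358 at the 16-cell stage and 2561, 2306 and 2633 in blastocysts (difference 4.32 ± 1.02, adjusted p = 0.0027). Libraries of the 16-cell stage were far apart for this gene, and all 3 blastocyst libraries lay above them. SLC38A1 was highest at the 16-cell stage, with 289.9, 136 and 767, against 46.3, 9.16 and 51.2 in 8-cell embryos (difference 3.25 ± 1.2, adjusted p = 0.044) and 16.0, 57.0 and 34.8 in blastocysts. SLC6A20, which carries proline with sodium and chloride, had its lowest levels at the 16-cell stage, 69.7, 33.9 and 14.8, below 107, 141 and 163 at the 8-cell stage (difference -1.89 ± 0.49, adjusted p = 0.0064) and 201, 638 and 319 in blastocysts (difference 3.22 ± 0.49, adjusted p = 4.4e-05). SLC36A1, which carries small amino acids with protons, ranged over 151 to 1089 and passed no test. SLC38A1 at the 16-cell stage lost its call in 10 of the 18 fits without 1 library, all but those without GV replicates 2 and 3, MII replicates 2 and 3, 4-cell replicates 1 and 3, 8-cell replicate 3 or 16-cell replicate 2, and with array weights, no filter or quantile normalization (adjusted p 0.051 to 0.26). SLC6A20 at the 16-cell stage lost its call with voom (adjusted p 0.099).

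**Figure D4:**
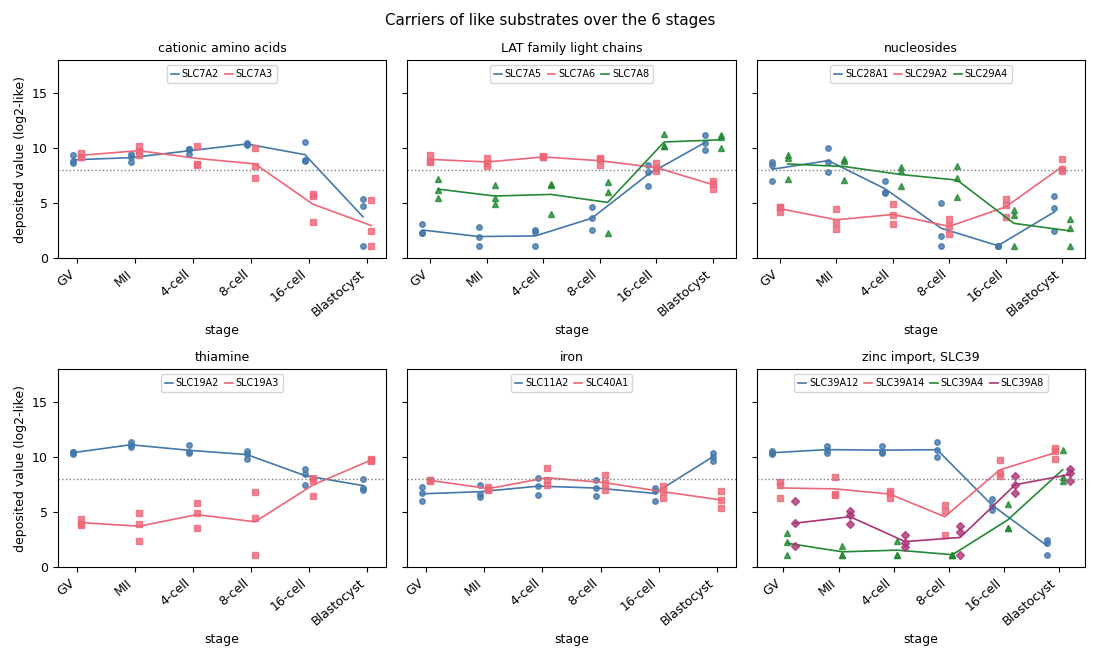
Deposited log2-like value (y axis) of carriers with like substrates across the 6 stages (x axis), where points are the 3 libraries per stage, lines join stage means and the dotted line marks the value of 8. In each panel at least 1 carrier has its blastocyst points mostly below 8 (SLC7A3, SLC28A1, SLC40A1 and SLC39A12, for example), and in each but the first another carrier has a blastocyst mean above 8.

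SLC16A1 was the only member among carriers of lactate and pyruvate, the main fuels of cleaving embryos. It measured 739, 791 and 714 (GV), 854, 869 and 1248 (MII), 589, 567 and 607 (4-cell), 1011, 959 and 740.2 (8-cell), 2237, 926 and 1492 (16-cell) and 5144, 2873 and 3110.2 (blastocyst). The blastocyst libraries were the highest, it rose from the 16-cell stage (difference 1.29 ± 0.32, adjusted p = 0.0035), and it was higher than in GV oocytes (difference 2.25 ± 0.32, adjusted p = 7.3e-06). SLC16A3 and SLC16A7, which also carry lactate and pyruvate, stayed below the level at 23.3 ± 9.91 (GV) and 88.2 ± 56.4 scaled counts (blastocyst) at their highest. SLC16A1 between the 16-cell stage and the blastocyst lost its call with medians set equal (adjusted p 0.1).

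Of the 7 sugar and polyol carriers, SLC2A5 was higher and 4 others lower in blastocysts than in GV oocytes, where 30.6% and 30.3% of genes of like level were. SLC2A5, which carries fructose, measured 0.948, 0 and 0 in GV, 0, 0 and 0.858 in MII, 1.69, 0 and 0 in 4-cell, 84.1, 77.1 and 157 in 8-cell, 2382, 847 and 1186 in 16-cell and 4470.4, 3968 and 3077 in blastocyst libraries. It had 3 or fewer reads in each library up to the 4-cell stage, then each stage lay above the one before without overlap. It rose at the 8-cell stage (difference 5.21 ± 0.65, adjusted p = 8.5e-06) and at the 16-cell stage (difference 3.67 ± 0.65, adjusted p = 0.00029), and the step to the blastocyst gave no call (difference 1.5 ± 0.65, adjusted p = 0.087). Sodium-driven sugar carriers went down: SLC5A9, which takes mannose and glucose, from 175, 163 and 52.5 in 8-cell to 1.12, 0 and 0 in 16-cell libraries (difference -5.46 ± 0.76, adjusted p = 3.1e-05), and SLC5A1, which takes glucose and galactose, from 249, 467 and 159 to 87.6, 45.2 and 3.71 (difference -3.06 ± 0.86, adjusted p = 0.01). Both lie next to the threshold, with highest stage means of 8.005 and 8.071. SLC45A4, a proton-linked sugar carrier, fell earlier, from 611, 410.2 and 304 in 4-cell to 50.6, 99.3 and 89.2 in 8-cell embryos (difference -2.4 ± 0.43, adjusted p = 0.00049). SLC5A3, which takes up myo-inositol, measured 413, 251 and 282 at the 16-cell stage and 35.3, 60.2 and 215 in blastocysts (difference -1.93 ± 0.55, adjusted p = 0.01), where replicate 3 overlapped the earlier range, and it shares its place in the gene table with MRPS6. SLC37A3, of the sugar phosphate exchanger family, ranged over 138 to 546. SLC2A8 had its highest levels in blastocysts, 344, 653 and 279.8, with no call from GV oocytes (difference 1.96 ± 0.87, adjusted p = 0.072). SLC5A1 at the 16-cell stage lost its call without 8-cell replicate 2 or 16-cell replicate 3 (adjusted p 0.051 to 0.076). SLC5A1 between GV oocytes and blastocysts lost its call without GV replicate 2 or Blastocyst replicate 1 (adjusted p 0.088 to 0.14). SLC45A4 between GV oocytes and blastocysts lost its call without GV replicates 1 and 2 or Blastocyst replicates 2 and 3 (adjusted p 0.062 to 0.097). SLC5A3 between the 16-cell stage and the blastocyst lost its call without Blastocyst replicate 1 and with array weights (adjusted p 0.073 to 0.08). SLC5A3 between GV oocytes and blastocysts lost its call in 11 of the 18 fits without 1 library, all but those without 8-cell replicates 1, 2 and 3, 16-cell replicates 1, 2 and 3 or Blastocyst replicate 3, and with array weights (adjusted p 0.051 to 0.23).

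Vitamin and choline carriers gave 3 rises and 2 falls among 5 at the 16-cell stage, where 23.2% of genes of like level rose and 25.4% fell. The 2 thiamine carriers crossed. SLC19A2 measured 1396, 1433 and 1213 (GV), 1948, 2193 and 2577 (MII), 1383, 2169 and 1285 (4-cell), 925, 1502 and 1229.8 (8-cell), 485, 356 and 176 (16-cell) and 144, 126 and 245 (blastocyst), and fell at the 16-cell stage (difference -1.92 ± 0.36, adjusted p = 0.00049). SLC19A3 measured 1.71 to 52.2 in the first 9 libraries, 107, 0 and 17.1 at the 8-cell stage, 222, 81.9 and 275 at the 16-cell stage and 846, 892 and 797 in blastocysts, and was higher there than in GV oocytes (difference 5.7 ± 1.03, adjusted p = 0.00012). The first was thus high in oocytes and low in blastocysts, and the second the reverse. SLC5A6, which takes up biotin and pantothenate, measured 110.0, 130.0 and 100.5 in GV, 98.2, 129 and 58.4 in MII, 145, 116 and 139.7 in 4-cell, 192, 396 and 889 in 8-cell, 2736, 3047 and 2142 in 16-cell and 463, 571 and 456 in blastocyst libraries. It rose at the 8-cell stage (difference 1.59 ± 0.45, adjusted p = 0.02) and the 16-cell stage (difference 2.67 ± 0.45, adjusted p = 0.00017), then fell (difference -2.39 ± 0.45, adjusted p = 0.00032) to a level above that of GV oocytes. It overlaps ATRAID in the gene table. SLC44A2, a choline carrier, passed through a low of 4.49, 31.1 and 14.8 at the 16-cell stage to 1164, 2159 and 1542 in blastocysts (difference 6.48 ± 0.57, adjusted p = 4.2e-08). SLC23A2, which takes up ascorbate, peaked at the 16-cell stage with 346, 152 and 512 (difference 1.41 ± 0.51, adjusted p = 0.04), against 48.7, 60.2 and 118 in blastocysts (difference -2.03 ± 0.51, adjusted p = 0.004). The folate carrier SLC46A1 stayed just below the level, at 161.2 ± 109.5 scaled counts at the 16-cell stage. SLC19A3 at the 16-cell stage lost its call without 8-cell replicate 2 or 16-cell replicate 3 and with array weights (adjusted p 0.061 to 0.29). SLC5A6 at the 8-cell stage lost its call without 4-cell replicate 2 or 8-cell replicate 3 and with array weights or medians set equal (adjusted p 0.053 to 0.14). SLC44A2 at the 16-cell stage lost its call without 16-cell replicate 1 and with array weights or voom (adjusted p 0.063 to 0.092). SLC23A2 at the 16-cell stage lost its call without 8-cell replicates 1, 2 and 3 or 16-cell replicates 1 and 3 and with array weights, medians set equal or quantile normalization (adjusted p 0.059 to 0.18).

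**Figure D5:**
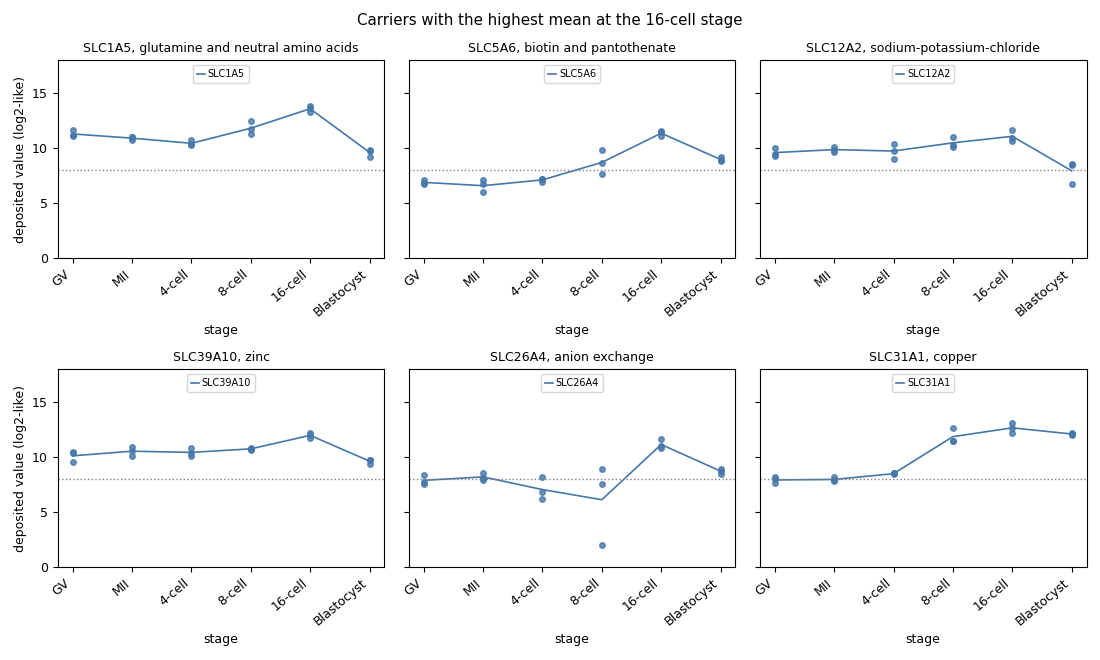
Deposited log2-like value (y axis) of 6 carriers with the highest mean at the 16-cell stage, by stage (x axis), where points are the 3 libraries, lines join stage means and the dotted line marks the value of 8. SLC1A5, SLC5A6, SLC12A2 and SLC39A10 drop into the blastocyst, SLC26A4 has 1 library near the floor at the 8-cell stage, and SLC31A1 stays high from the 8-cell stage on.

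Of the 4 nucleoside carriers, 2 were higher and 2 lower in blastocysts than in GV oocytes, where 30.6% and 30.3% of genes of like level were, and 3 rose from the 16-cell stage to the blastocyst, against 19.6%. SLC28A1, which concentrates pyrimidine nucleosides with sodium, measured 424, 351 and 122 (GV), 1039, 424 and 217 (MII), 59.1, 122 and 56.2 (4-cell), 27.8, 0.764 and 0 (8-cell), 0, 0 and 0 (16-cell) and 2, 18.6 and 44.5 (blastocyst). No read was found at the 16-cell stage. All 4-cell libraries already lay below the MII libraries (difference -2.558 ± 0.967, adjusted p = 0.41), a fall called with array weights but not in the main fit. The step to the 8-cell stage passed in the main fit (difference -3.61 ± 0.97, adjusted p = 0.015). SLC29A4, which carries monoamines and adenosine, measured 155, 321 and 43.3 in 8-cell and 11.2, 16.9 and 0 in 16-cell libraries (difference -3.94 ± 0.93, adjusted p = 0.0031) and stayed at 0, 7.67 and 2.9 in blastocysts. The equilibrative carriers SLC29A1 and SLC29A2 rose into the blastocyst, SLC29A1 from 22.5, 104 and 265 to 423, 1376 and 841 (difference 3.11 ± 0.66, adjusted p = 0.0011) and SLC29A2 from 24.7, 36.7 and 9.28 to 237, 501 and 266 (difference 3.68 ± 0.78, adjusted p = 0.001). Up to the 8-cell stage SLC29A2 ranged over 1.31 to 26.1. SLC28A1 also gained a few reads in blastocysts, 2, 18.6 and 44.5 scaled counts (difference 3.09 ± 0.97, adjusted p = 0.018). SLC28A1 at the 8-cell stage lost its call without 4-cell replicate 2 or 8-cell replicate 3 and with array weights (adjusted p 0.055 to 0.089). SLC28A1 between the 16-cell stage and the blastocyst lost its call without Blastocyst replicates 2 and 3 and with voom (adjusted p 0.064 to 0.11). SLC29A1 between GV oocytes and blastocysts lost its call without GV replicates 2 and 3 or Blastocyst replicates 2 and 3 (adjusted p 0.078 to 0.15).

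Carriers of protons, bicarbonate, sodium, potassium and calcium all differed between the ends of the series, 5 of 10 upward and 5 downward, against 30.6% and 30.3% of genes of like level. SLC12A5, best known as the potassium-chloride exporter of neurons, measured 721, 565 and 263 in GV, 447, 418 and 388 in MII, 709, 546 and 338 in 4-cell, 310.1, 464 and 367 in 8-cell, 23.6, 53.6 and 35.3 in 16-cell and 0.667, 0 and 11.6 in blastocyst libraries, and fell at the 16-cell stage (difference -3.25 ± 0.6, adjusted p = 0.00042) and in blastocysts (difference -3.0 ± 0.6, adjusted p = 0.00067). SLC12A2, which takes up sodium, potassium and chloride together, was highest at the 16-cell stage, 1894, 1640.4 and 3205, and lowest in blastocysts, 347, 104 and 376 (difference -3.15 ± 0.44, adjusted p = 1.5e-05). SLC8A1, which exports calcium for sodium, measured 1394, 1581 and 713 in 8-cell, 226, 325 and 189 in 16-cell and 21.3, 102 and 19.4 in blastocyst libraries, with falls at both steps (difference -2.25 ± 0.48, adjusted p = 0.0013, then difference -2.62 ± 0.48, adjusted p = 0.00026). The mitochondrial calcium exporter SLC24A6 (now SLC8B1) had its low at the 8-cell stage, 14.3, 24.4 and 26.2, and measured 108, 311 and 115 at the 16-cell stage (difference 2.68 ± 0.61, adjusted p = 0.0023).

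Bicarbonate carriers take part in pH control. SLC4A4, which moves bicarbonate with sodium, fell from 231, 667 and 268 in 8-cell to 84.3, 87.5 and 20.4 in 16-cell libraries (difference -2.58 ± 0.54, adjusted p = 0.0012), and measured 16.7, 27.4 and 60.0 in blastocysts. SLC4A2, which exchanges chloride for bicarbonate, rose over the same step from 24.2, 5.34 and 53.8 to 130.3, 184 and 123 (difference 2.58 ± 0.8, adjusted p = 0.019). SLC4A7, another sodium-bicarbonate carrier, kept 736 to 1893 from MII on, above 348, 444 and 597 in GV oocytes, and blastocysts passed the test against those (difference 0.93 ± 0.3, adjusted p = 0.015). SLC24A6 between GV oocytes and blastocysts lost its call without GV replicates 2 and 3 or Blastocyst replicate 2 (adjusted p 0.052 to 0.074). SLC4A2 at the 16-cell stage lost its call without 8-cell replicate 2 or 16-cell replicate 2 and with array weights (adjusted p 0.055 to 0.11). SLC4A2 between GV oocytes and blastocysts lost its call without GV replicate 2 or Blastocyst replicate 2 (adjusted p 0.061 to 0.11). SLC4A7 between GV oocytes and blastocysts lost its call without GV replicate 1 and with medians set equal (adjusted p 0.08 to 0.18).

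Of 6 carriers of phosphate, sulfate and other anions, SLC34A2 made the widest move. This sodium-phosphate carrier measured 0, 0 and 0 (GV), 0, 2.63 and 0.858 (MII), 4.5, 0 and 0 (4-cell), 281, 30.5 and 451 (8-cell), 715, 2377 and 1643 (16-cell) and 3716, 2882 and 3771 (blastocyst). At most 8 reads were found in any library up to the 4-cell stage, and each later stage lay higher, with calls at the 8-cell (difference 5.62 ± 0.84, adjusted p = 6.7e-05) and 16-cell stage (difference 3.1 ± 0.84, adjusted p = 0.0078). The housekeeping phosphate carrier SLC20A1 was at high levels in all stages, 791 to 2196, and only its difference between GV oocytes and blastocysts passed (difference 0.86 ± 0.32, adjusted p = 0.031). SLC26A4, which exchanges chloride, iodide and bicarbonate, measured 179, 206 and 333 in GV, 243, 265 and 371 in MII, 107, 278 and 67.9 in 4-cell, 178, 0.764 and 463 in 8-cell, 2061, 1770.3 and 3181 in 16-cell and 481, 352 and 429 in blastocyst libraries. The rise at the 16-cell stage (difference 5.04 ± 1.03, adjusted p = 0.00096) held without the low 8-cell replicate 2. The limma fit to the 8-cell and 16-cell libraries alone lost this call of SLC26A4 (adjusted p = 0.17). SLC26A2, a sulfate carrier, was also highest at the 16-cell stage, 554, 223 and 694, with 8-cell libraries spread over 232, 9.93 and 478, and fell into blastocysts at 49.3, 58.1 and 76.5 (difference -2.79 ± 0.93, adjusted p = 0.026). SLC17A1, an organic anion and phosphate carrier known from kidney, measured 488, 239.8 and 309.7 in 8-cell, 471, 14.1 and 14.8 in 16-cell and 2.67, 59.2 and 1.94 in blastocyst libraries, a fall at the 16-cell stage (difference -2.62 ± 0.96, adjusted p = 0.044) and a lower level in blastocysts than in GV oocytes (difference -3.93 ± 0.96, adjusted p = 0.0022). In the gene table SLC17A1 overlaps SLC17A4, H2BC1, H2AC1, SCGN and CARMIL1, so reads of these genes may be mixed. SLC26A6, an anion exchanger, passed no test, at 37.4 to 639.7. SLC34A2 at the 16-cell stage lost its call without 8-cell replicate 2 and with array weights (adjusted p 0.058 to 0.06). SLC20A1 between GV oocytes and blastocysts lost its call without GV replicates 1 and 3 or Blastocyst replicates 2 and 3 and with medians set equal (adjusted p 0.065 to 0.27). SLC26A2 between the 16-cell stage and the blastocyst lost its call without 16-cell replicates 1 and 3 or Blastocyst replicates 1, 2 and 3 (adjusted p 0.05 to 0.082). SLC17A1 at the 16-cell stage lost its call in 15 of the 18 fits without 1 library, all but those without 16-cell replicate 1 or Blastocyst replicates 2 and 3, and with no filter or voom (adjusted p 0.051 to 0.19).

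Zinc, iron, copper, magnesium and manganese carriers were the largest group, with 19 members, of which 11 were higher and 4 lower in blastocysts than in GV oocytes, where 30.6% and 30.3% of genes of like level were. Among the zinc importers of the SLC39 family, SLC39A12 fell at the 16-cell stage, and SLC39A14 and SLC39A8 rose there. SLC39A12 measured 1204, 1484 and 1339 (GV), 1642, 1337 and 1995 (MII), 1389.5, 2099 and 1356 (4-cell), 1602, 2628 and 1021 (8-cell), 66.3, 42.4 and 31.6 (16-cell) and 1.33, 0 and 1.94 (blastocyst). It had no call up to the 8-cell stage, fell at the 16-cell stage (difference -5.06 ± 0.43, adjusted p = 5.2e-07) and was almost gone in blastocysts (difference -3.7 ± 0.43, adjusted p = 1.4e-06), where 1 library had no read. SLC39A14, which also takes up iron and manganese, measured 70.9, 103 and 116 in 4-cell, 30.7, 3.82 and 45.9 in 8-cell, 303, 839 and 362 in 16-cell and 1479, 1808 and 893 in blastocyst libraries. It fell at the 8-cell stage (difference -2.07 ± 0.65, adjusted p = 0.04) and rose at the 16-cell stage (difference 4.28 ± 0.65, adjusted p = 7.5e-05). The fall of SLC39A14 lost its call in 7 of the fits without 1 library. SLC39A8, of like substrates, measured 0, 5.34 and 9.19 in 8-cell, 313, 98.8 and 169 in 16-cell and 479.9, 222 and 364 in blastocyst libraries. Its rise at the 16-cell stage passed (difference 4.81 ± 0.93, adjusted p = 0.00058). Earlier it measured 22.2, 29.0 and 11.2 in MII and 1.13, 0.564 and 3.92 in 4-cell libraries, with no call (difference -2.27 ± 0.926, adjusted p = 0.5). SLC39A4, the zinc importer of gut epithelium, had 0 to 4.74 scaled counts up to the 8-cell stage, 7.87, 48.0 and 7.42 at the 16-cell stage and 215, 1549 and 279 in blastocysts (difference 4.59 ± 0.85, adjusted p = 0.00031). Of its blastocyst libraries replicate 2 was the highest, and all 3 lay above every earlier library.

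SLC39A10, also a zinc importer, measured 739 to 1964 in the first 12 libraries and 4676, 3374 and 4157 at the 16-cell stage (difference 1.23 ± 0.3, adjusted p = 0.0043), against 647, 865 and 869 in blastocysts (difference -2.35 ± 0.3, adjusted p = 5.9e-06). SLC39A1 rose into blastocysts, from 41.6, 39.5 and 163 to 201, 450.2 and 241 (difference 2.03 ± 0.68, adjusted p = 0.025), and SLC39A9, of the Golgi, rose at the 16-cell stage from 128, 158 and 214 to 443, 556 and 401 (difference 1.48 ± 0.45, adjusted p = 0.017). SLC39A6 ranged over 23.7 to 607 with no call, its 8-cell and 16-cell libraries being the highest but for blastocyst replicate 2.

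Zinc exporters of the SLC30 family load vesicles and the secretory pathway or move zinc out of the cell. SLC30A2, of vesicles, had no read in GV, MII and 4-cell libraries, 0, 0 and 14.4 in 8-cell and 0, 5.65 and 35.3 in 16-cell libraries, and 274, 357 and 227 in blastocysts (difference 4.94 ± 0.9, adjusted p = 0.00025). SLC30A6 measured 0 to 18.9 in the first 9 libraries, 29.9, 0 and 129 at the 8-cell stage and 1034, 432 and 367 at the 16-cell stage (difference 4.7 ± 1.1, adjusted p = 0.003). Its partner in the Golgi, SLC30A5, measured 397, 27.5 and 831 and 642, 737 and 1223 at these stages, and was higher in blastocysts than in GV oocytes (difference 2.83 ± 0.75, adjusted p = 0.0041). SLC30A9 moved the other way: 2161, 2124 and 2475 in 4-cell, 1059, 887 and 864 in 8-cell, 19.1, 79.1 and 195 in 16-cell and 448, 346 and 397 in blastocyst libraries, a fall (difference -3.69 ± 0.49, adjusted p = 1.9e-05) followed by a partial return (difference 2.46 ± 0.49, adjusted p = 0.00058). The exporters thus did not move as a block at the 16-cell stage. SLC30A4 fell at the 16-cell stage, from 669, 587 and 766 to 218, 460.2 and 265 (difference -1.15 ± 0.37, adjusted p = 0.022). SLC30A1, the exporter of the plasma membrane, measured 296, 344 and 356 in GV oocytes and 1082, 519 and 857 in blastocysts (difference 1.23 ± 0.47, adjusted p = 0.038), and SLC30A7, of the Golgi, passed no test at 126 to 1076. SLC39A14 at the 8-cell stage lost its call without 4-cell replicates 1, 2 and 3, 8-cell replicate 2 or Blastocyst replicates 1, 2 and 3 and with array weights or voom (adjusted p 0.052 to 0.18). SLC39A1 between the 16-cell stage and the blastocyst lost its call without 16-cell replicates 1 and 2 or Blastocyst replicate 2 and with array weights or medians set equal (adjusted p 0.053 to 0.11). SLC39A9 at the 16-cell stage lost its call without 8-cell replicate 1 or 16-cell replicate 2 and with array weights (adjusted p 0.052 to 0.065). SLC30A4 at the 16-cell stage lost its call without 8-cell replicates 1 and 3 or 16-cell replicates 1 and 3 and with array weights (adjusted p 0.051 to 0.098). SLC30A4 between GV oocytes and blastocysts lost its call without GV replicate 3 (adjusted p 0.054). SLC30A1 between GV oocytes and blastocysts lost its call without GV replicates 1, 2 and 3 or Blastocyst replicates 1 and 3 and with medians set equal (adjusted p 0.067 to 0.15).

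Copper, iron and magnesium carriers each had their own course. SLC31A1, the high-affinity copper importer, measured 246, 281 and 192 in GV, 217, 233 and 288 in MII, 363, 359 and 341 in 4-cell, 2893, 2799 and 6330.0 in 8-cell, 8767, 4760.4 and 6548 in 16-cell and 4669.7, 4095 and 4429.5 in blastocyst libraries. All libraries from the 8-cell stage on lay above all earlier ones, and the rise at the 8-cell stage had the smallest adjusted p among the members there (difference 3.38 ± 0.32, adjusted p = 2.1e-07). SLC11A2, which brings ferrous iron into the cell and out of endosomes, measured 59.3 to 273 in the first 15 libraries and 1341, 1043 and 783 in blastocysts (difference 3.33 ± 0.53, adjusted p = 6.5e-05). The iron exporter SLC40A1 went from 215, 242 and 233 in GV oocytes to 113, 63.5 and 35.8 in blastocysts (difference -1.78 ± 0.51, adjusted p = 0.0071). SLC41A2, a magnesium carrier, measured 377, 714 and 907 (GV), 702, 669 and 1051 (MII), 339, 541 and 475 (4-cell), 103, 17.6 and 36.7 (8-cell), 4.49, 16.9 and 46.4 (16-cell) and 671, 403 and 360.1 (blastocyst). It fell at the 8-cell stage (difference -3.29 ± 0.61, adjusted p = 0.00068) and rose into the blastocyst (difference 4.5 ± 0.61, adjusted p = 9.5e-06), with 8-cell and 16-cell libraries all below the others. 

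Carriers of nucleotide sugars and acetyl-CoA feed glycosylation and acetylation in the Golgi and endoplasmic reticulum, and 3 of these 7 were higher and 1 lower in blastocysts than in GV oocytes (30.6% and 30.3% of genes of like level). SLC33A1, which brings acetyl-CoA into the endoplasmic reticulum, measured 0, 2.82 and 20.9 in 4-cell, 125, 20.6 and 188 in 8-cell and 449, 274 and 369 in 16-cell libraries (difference 3.6 ± 0.96, adjusted p = 0.015 at the 8-cell stage), and its blastocysts stood above GV oocytes (difference 5.64 ± 0.96, adjusted p = 6.5e-05). SLC35A4 had a low of 18.5, 13.7 and 6.56 at the 8-cell stage and measured 83.1, 84.7 and 134 at the 16-cell stage (difference 2.67 ± 0.63, adjusted p = 0.0031) and 275, 745 and 279 in blastocysts (difference 1.93 ± 0.63, adjusted p = 0.023). SLC35A3, for UDP-N-acetylglucosamine, dipped as well, from 152, 83.0 and 183 in 4-cell to 19.2, 26.0 and 63.0 in 8-cell libraries (difference -1.92 ± 0.56, adjusted p = 0.026) and back to 78.7, 223 and 104 (difference 1.81 ± 0.56, adjusted p = 0.018). SLC35D1 dipped at the 16-cell stage, with 289, 131 and 131, 87.6, 50.8 and 37.1 and 263, 211 and 332 in the last 3 stages (difference -1.56 ± 0.44, adjusted p = 0.0095, then difference 2.18 ± 0.44, adjusted p = 0.00063). SLC35B1 rose into blastocysts from 74.2, 308 and 124 to 879.8, 744 and 462 (difference 2.21 ± 0.49, adjusted p = 0.0016). SLC35A5 fell there from 964, 488 and 329 to 227, 168 and 161 (difference -1.53 ± 0.39, adjusted p = 0.0043). SLC35A1, for CMP-sialic acid, measured 1059, 1411 and 1099 in MII oocytes, its highest stage, 672, 471 and 981 in GV oocytes and 375, 284 and 221 in blastocysts (difference -1.23 ± 0.41, adjusted p = 0.018). It overlaps RARS2 in the gene table. SLC33A1 at the 8-cell stage lost its call without 4-cell replicate 1 or 8-cell replicates 1 and 3 (adjusted p 0.058 to 0.1). SLC35A4 between the 16-cell stage and the blastocyst lost its call without 16-cell replicates 1 and 2 or Blastocyst replicate 2 and with array weights or medians set equal (adjusted p 0.057 to 0.13). SLC35A4 between GV oocytes and blastocysts lost its call without Blastocyst replicate 2 (adjusted p 0.052). SLC35A3 at the 8-cell stage lost its call without 4-cell replicates 1 and 3 or 8-cell replicates 1 and 2 and with voom (adjusted p 0.052 to 0.11). SLC35A3 at the 16-cell stage lost its call without 8-cell replicates 1 and 2 or 16-cell replicate 2 and with voom (adjusted p 0.051 to 0.089). SLC35A3 between GV oocytes and blastocysts lost its call without GV replicates 1 and 2 or Blastocyst replicates 1 and 3 and with medians set equal (adjusted p 0.066 to 0.12). SLC35D1 at the 16-cell stage lost its call without 8-cell replicate 1 and with voom (adjusted p 0.062 to 0.095). SLC35A1 between GV oocytes and blastocysts lost its call without GV replicate 3 or Blastocyst replicate 3 (adjusted p 0.078 to 0.099).

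Carriers named for neurotransmitters were present in these libraries too. SLC17A7, which loads glutamate into synaptic vesicles, measured 104, 114 and 145 in GV, 204, 177 and 193 in MII, 38.8, 289 and 95.3 in 4-cell, 721, 2765 and 764 in 8-cell, 785, 737 and 462 in 16-cell and 28.0, 2.19 and 51.3 in blastocyst libraries. It rose at the 8-cell stage (difference 3.42 ± 0.73, adjusted p = 0.0025), where replicate 2 stood apart from the other 2, and fell in blastocysts (difference -4.91 ± 0.73, adjusted p = 2.8e-05). GFY overlaps it in the gene table. SLC18A2, which loads monoamines into vesicles, fell into blastocysts, from 116, 152 and 124 to 10.7, 29.6 and 49.4 (difference -2.17 ± 0.54, adjusted p = 0.0035). The serotonin carrier SLC6A4 had a low of 366, 176 and 273 at the 8-cell stage and measured 916, 712 and 612 at the 16-cell stage (difference 1.49 ± 0.37, adjusted p = 0.0049). The creatine carrier SLC6A8 rose into blastocysts from 171, 31.1 and 182 to 484, 1091 and 713 (difference 2.79 ± 0.59, adjusted p = 0.00099). SLC17A5, which takes sialic acid out of lysosomes, passed no test at 41.6 to 519. Carriers of taurine (SLC6A6, 14.5 ± 24.5 scaled counts in blastocysts) and of glycine (SLC6A9, 33.2 ± 7.4 in MII oocytes) stayed below the level at their highest. SLC17A7 between GV oocytes and blastocysts lost its call without Blastocyst replicate 2 and with voom (adjusted p 0.056 to 0.073). SLC6A4 at the 16-cell stage lost its call with array weights (adjusted p 0.065). SLC6A8 between GV oocytes and blastocysts lost its call without GV replicates 2 and 3 or Blastocyst replicates 2 and 3 and with medians set equal (adjusted p 0.053 to 0.11).

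Single members stand for other substrates. SLC15A4, which carries histidine and small peptides out of lysosomes, ranged over 218 to 907, and the carnitine carrier SLC22A5 over 102 to 636, both without a call.

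Of 8 members of uncertain substrate, 4 fell and 1 rose at the 16-cell stage, where 25.4% of genes of like level fell and 23.2% rose. SLC10A4, a relative of bile acid carriers, measured 388, 325 and 144 in 8-cell, 6.74, 0 and 109.5 in 16-cell and 6.67, 0 and 4.84 in blastocyst libraries (difference -4.29 ± 0.93, adjusted p = 0.0016 at the 16-cell stage). SLC35E3 measured 404, 1565 and 398, 46.1, 155 and 202 and 91.3, 52.6 and 66.8 at the same stages (difference -2.43 ± 0.51, adjusted p = 0.0012), after 872 to 1615 before. SLC44A5 measured 280.2, 368 and 226, 24.7, 96.0 and 119 and 19.3, 23.0 and 21.3 (difference -2.03 ± 0.49, adjusted p = 0.0037, then difference -1.49 ± 0.49, adjusted p = 0.025). SLC16A13 fell at the 16-cell stage to 16.9, 2.82 and 50.1 (difference -2.68 ± 0.79, adjusted p = 0.013) and rose to 109, 274 and 117 in blastocysts (difference 3.02 ± 0.79, adjusted p = 0.0054). SLC10A3 was lower in blastocysts, 58.0, 96.4 and 108, than in GV oocytes, 409, 416 and 186 (difference -1.85 ± 0.5, adjusted p = 0.0047). SLC35F5 had its low at the 8-cell stage, 23.5, 6.11 and 10.5 (difference -2.37 ± 0.61, adjusted p = 0.012), measured 97.8, 116 and 121 at the 16-cell stage (difference 2.86 ± 0.61, adjusted p = 0.0014) and was highest in blastocysts, 459, 299 and 287. SLC35E1 passed no test at 101 to 788. SLC44A5 between the 16-cell stage and the blastocyst lost its call without 16-cell replicates 2 and 3 or Blastocyst replicates 1 and 3 and with voom (adjusted p 0.051 to 0.23). SLC16A13 at the 16-cell stage lost its call without 8-cell replicates 1 and 2 or 16-cell replicate 2 and with voom (adjusted p 0.059 to 0.081). SLC16A13 between the 16-cell stage and the blastocyst lost its call with voom (adjusted p 0.053). SLC35F5 at the 8-cell stage lost its call without 4-cell replicate 3 (adjusted p 0.064). SLC35F5 between GV oocytes and blastocysts lost its call without GV replicate 1 (adjusted p 0.066).

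Among the 3 genes that carry the name without being carriers, the scaffold changed most. SLC9A3R1, the scaffold NHERF1 that ties membrane proteins to ezrin and the actin cytoskeleton, measured 602, 379 and 361 (GV), 243, 279.9 and 337 (MII), 296, 229.7 and 381 (4-cell), 343, 591 and 346 (8-cell), 32.6, 67.8 and 76.1 (16-cell) and 4867, 6356 and 3766 (blastocyst). It fell at the 16-cell stage (difference -2.81 ± 0.38, adjusted p = 2.7e-05) and rose into the blastocyst (difference 6.36 ± 0.38, adjusted p = 2.3e-10). SLC7A6OS peaked at the 16-cell stage, with 898, 357 and 803 in 8-cell, 2091, 1621 and 924 in 16-cell and 582, 588 and 295 in blastocyst libraries (difference -1.64 ± 0.43, adjusted p = 0.0057 for the last step), while SLC7A6, whose place it shares, did not. SLC4A1AP fell at the 16-cell stage from 966, 613 and 408 to 381, 229 and 193 (difference -1.27 ± 0.35, adjusted p = 0.0087). SLC7A6OS at the 8-cell stage lost its call without 4-cell replicates 2 and 3 or 8-cell replicates 1 and 3 and with medians set equal, quantile normalization or voom (adjusted p 0.058 to 0.17). SLC7A6OS at the 16-cell stage lost its call without 8-cell replicate 2 or 16-cell replicates 1 and 2 and with array weights or medians set equal (adjusted p 0.075 to 0.28). SLC4A1AP at the 16-cell stage lost its call without 8-cell replicate 1 (adjusted p 0.062).

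Partners and regulators of carriers were followed as a list of 40 genes, of which 31 could be tested. Between neighbouring stages 4 rose and 1 fell at the 8-cell stage, 7 rose and 5 fell at the 16-cell stage, and 8 rose and 4 fell into the blastocyst, after 1 fall in the 4-cell embryo. Of all genes tested, 8.64% rose and 4.13% fell at the first of these steps, 14.8% and 16.3% at the next, and 18.2% and 13.1% at the last. The kinase SGK1, which raises the surface level of many carriers, rose at the 8-cell stage from 5.44 ± 8.94 to 2583 ± 939 scaled counts (difference 8.87 ± 0.65, adjusted p = 7.3e-09). Of the sodium pump, whose gradient drives sodium-coupled carriers, the subunit ATP1B3 differed between GV oocytes and blastocysts, from 111 ± 11.6 to 7692 ± 2979 (difference 6.0 ± 0.48, adjusted p = 3.9e-09). Ezrin (EZR), which binds SLC9A3R1, fell at the 8-cell and 16-cell stages and rose from 947 ± 580.4 to 13225 ± 4867 in blastocysts (difference 3.93 ± 0.33, adjusted p = 2.4e-08). Its relative moesin (MSN) was the 1 gene of the list to fall in 4-cell embryos, from 1215 ± 94.1 to 95.8 ± 10.4 (difference -3.61 ± 0.36, adjusted p = 3e-05). The kinase WNK1, which controls SLC12 cotransporters, rose at the 16-cell stage from 2915 ± 898 to 7783 ± 1157 (difference 1.45 ± 0.28, adjusted p = 0.00053) and fell in blastocysts (difference -1.36 ± 0.28, adjusted p = 0.00071). STK39, which phosphorylates them, went from 329 ± 42.8 in GV oocytes to 5.49 ± 5.17 in blastocysts (difference -5.41 ± 0.66, adjusted p = 1.1e-06). Carbonic anhydrase CA2 was nearly gone in blastocysts, at 2.56 ± 4.43 against 181 ± 54.5 at the 16-cell stage (difference -5.58 ± 0.74, adjusted p = 7.4e-06).

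Genes that sense amino acids, 31 tested, gave 6 rises and 9 falls at the 16-cell stage and 6 rises and 4 falls into the blastocyst. Of all genes tested 14.8% and 16.3% were called at the first and 18.2% and 13.1% at the second step. ATF4, the transcription factor that many amino acid carriers answer to, was higher in blastocysts, 4162 ± 1509.9, than in GV oocytes, 819 ± 160.2 (difference 2.28 ± 0.35, adjusted p = 1.9e-05). ASNS, which makes asparagine, rose into blastocysts from 947 ± 862 to 3127 ± 557 (difference 2.08 ± 0.54, adjusted p = 0.0051), as did the kinase EIF2AK4, which senses uncharged tRNA (difference 2.31 ± 0.43, adjusted p = 0.00035). DDIT3 fell over the same step from 700 ± 224 to 180 ± 34.5 (difference -1.902 ± 0.368, adjusted p = 0.00046). SEH1L fell there as well, from 4589 ± 745 to 1183 ± 213 (difference -1.955 ± 0.244, adjusted p = 3.8e-06). RRAGD, a GTPase that recruits mTOR to lysosomes, went from 368 ± 41.5 in GV oocytes to 7.29 ± 6.99 in blastocysts (difference -5.26 ± 0.6, adjusted p = 5e-07), and SESN2, a leucine sensor, fell at the 16-cell stage from 134 ± 54.4 to 12.4 ± 3.67 (difference -3.03 ± 0.55, adjusted p = 0.00033).

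Metal sensing and storage genes, 17 in all, had 2 rises and 1 fall at the 16-cell stage and 6 rises and 1 fall into the blastocyst, against 14.8% and 16.3%, then 18.2% and 13.1% of all genes tested. The transferrin receptor TFRC, which brings iron into endosomes from which SLC11A2 exports it, rose at the 16-cell stage from 277 ± 279.8 to 2742 ± 1289 (difference 3.76 ± 0.59, adjusted p = 0.00011). Ferritin light chain FTL was the 1 fall at that step, from 4309 ± 1663 to 1371 ± 646 (difference -1.715 ± 0.418, adjusted p = 0.0038). The iron reductase STEAP3 was higher in blastocysts, 1891 ± 611, than in GV oocytes, 22.7 ± 8.95 (difference 6.16 ± 0.73, adjusted p = 8.1e-07), and ferritin heavy chain FTH1 rose from 260.1 ± 32.3 at the 16-cell stage to 2408 ± 656 (difference 3.16 ± 0.38, adjusted p = 2e-06). MTF1, the zinc-sensing transcription factor, fell in blastocysts, from 4218 ± 1115 to 819.7 ± 207 (difference -2.35 ± 0.26, adjusted p = 8.4e-07). The metal-binding MT3 fell during oocyte maturation, from 644 ± 309 in GV to 24.5 ± 26.4 in MII oocytes (difference -4.94 ± 0.88, adjusted p = 0.0063), and had no read in blastocysts.

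Courses over the last 2 steps were of all kinds. SLC1A5, SLC23A2, SLC39A10, SLC5A6 and SLC7A6OS rose at the 16-cell stage and fell in the blastocyst, and 8 members, SLC16A13, SLC30A9, SLC35D1, SLC44A2, SLC6A20, SLC7A7 and SLC9A3R1 among them, did the reverse. SLC35A4, SLC39A4, SLC3A2 and SLC7A5 rose at both steps, and SLC12A5, SLC39A12, SLC44A5 and SLC8A1 fell at both. Members of the plasma membrane and of inner membranes had like medians between GV oocytes and blastocysts, 0.86 and 0.85, where all genes tested had 0.26. The members nearest the threshold were SLC5A9, SLC5A1 and SLC40A1 with highest stage means of 8.005, 8.071 and 8.113, and just outside were SLC43A2 (7.976), SLC41A1 (7.962) and SLC10A1 (7.945). With a threshold of 7.5 the set would hold 108 genes, and with 8.5 it would hold 73.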

How the data were processed

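RNA was sequenced from 18 pools of bovine oocytes or embryos (6 stages, 3 libraries each). Per the labels' protocols, cDNA was primed with random and poly(A) primers, amplified isothermally and read as 80-base single reads, and no step marks the strand. The authors deposited log2-like, variance-stabilised values per gene. The submitters' processing notes name CASAVA 1.6, TopHat2 2.0.3, HTSeq, DESeq and build UMD3.1. For the annotation and for reads with several matches, the treatment is not given in the sources used here.

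The lowest value, 1.097, stood for 0 reads. Inverting the transformation gave whole reads for all 390024 values within a tolerance of 1e-08, and each library's scale differed from its median-of-ratios factor by at most 9.1e-15 in relative terms. A scaled count is reads divided by this factor. It cannot be compared between genes, since no lengths were used, nor read as an amount per embryo. All 18 columns matched a sample by name, and 0 columns belonged to other samples.

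The test was limma 3.58.1 (R 4.3.3) on the deposited values, with stage as the only term, all 18 libraries, a variance trend and empirical Bayes moderation. A gene entered with 1 read or more in 3 libraries or more (17138 genes), two-sided, with Benjamini-Hochberg adjustment over all of them. Nothing in the labels says that the pools came from separate collections, so p-values measure the spread between these pools, which may be technical. The script was tested on simulated data. Tables were made with pandas 2.3.3 and figures with matplotlib 3.10.9 in Python 3.11.15.

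The members, the substrate groups and the lists of other genes were chosen with earlier results of these data known. Genes were named by a rule: per comparison the 5 largest rises and 5 largest falls with an adjusted p under 0.05 and no overlap of libraries, per substrate group the 2 widest and the 1 narrowest in range of stage means, the 3 genes on each side of the threshold, and carriers known from embryos. It named 66 members. The other 27, such as SLC7A7 and SLC29A2, were added after their values were seen. Some genes in the counts are not reported here by name. List genes given with a test were among the 2 with the smallest p in each direction per comparison, and not all of those are given. All 93 members matched the gene table of NCBI RefSeq for ARS-UCD2.0, used for names and overlaps only, and 37 of them overlap another gene there. Of these, 18 overlap a protein-coding gene, and only some overlaps are named above.

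Replicate numbers were checked for pairing. Deviations from the stage means of same-numbered libraries correlated at 0.113, 0.134 and 0.108 between 16-cell embryos and blastocysts, which counts as paired, and at or below 0.1 for at least 1 number in each other comparison. The block kept all calls there. Alternatives were other scalings, weights, filters, voom on the reads, a replicate block, fits to both stages alone and each library left out.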

Additional observations from a re-analysis of the deposited data

How the results depend on the processing

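Of 174 calls of members, 125 held in every fit without 1 library, 135 in every other setting but the fit to both stages alone, and 0 turned direction in any. Calls lost numbered 12 with library medians set equal, 4 with quantile normalization, 22 with array weights, 15 with voom, 2 without a filter, and 0 among genes of mean value 5 or more. The fit to both stages alone, with fewer libraries, called 3 rises and 3 falls at the 8-cell stage, 2 and 5 at the 16-cell stage, and 16 and 11 into the blastocyst. Array weights gave 15 rises at the 16-cell stage. They also gave 2 rises (SLC20A1, SLC4A7) and 1 fall (SLC2A8) between GV and MII oocytes and 4 falls (SLC15A4, SLC28A1, SLC39A8, SLC3A2) in 4-cell embryos, where the main fit gave 0. The cause was not tested. Among genes of mean value 5 or more 1 member fell between GV and MII oocytes, SLC2A8.

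The replicate block gave 1 fall between GV and MII oocytes, SLC2A8 (adjusted p = 0.047, 0.079 without it), and lost no call. Outside the step from 16 cells to blastocyst the numbers were not taken to pair the samples, since each comparison had a correlation at or below 0.1 (range -0.108 to 0.202). In 11 of 15 pairs there the library correlated best with its own number, a hint from the data and not from the design.

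Leaving out 1 library gave 5 to 11 rises and 3 to 7 falls at the 8-cell stage, 16 to 28 and 17 to 23 at the 16-cell stage, 24 to 30 and 15 to 22 into the blastocyst, and 31 to 39 and 26 to 30 between the ends, with 0 in the 2 first comparisons. Depth limits the 16-cell stage most, where 1 read of replicate 2 is worth 2.82 scaled counts. At the same stage, replicate 1 had reads on 11970 genes, the fewest of all libraries.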
